A study of Mus musculus with 30 samples.

Results

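The genes described here are 10 members of the Notch pathway in mouse brain microvessels: the receptors Notch1, Notch3 and Notch4, the ligands Dll1, Dll4 and Jag1, and the target genes Hey1, Hey2, Heyl and Hes1. They were chosen by name, with earlier results of these data known. Every probe set that the array's annotation paired with exactly 1 of them was taken, the one with the highest mean over all arrays first. This gave 19 probe sets for 10 of the 18194 genes the array covers. All 10 members passed the filter on low signal, a log2 signal above 4 on at least 3 arrays, which left 11243 genes for testing.

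RNA of isolated brain microvessel pieces was measured on 30 Affymetrix arrays in 8 groups. The first model was made of C57/B6/J mice homozygous for loss of the retention motif of PDGF-B (pdgfbret/ret, 4 arrays, aged 7, 7, 7 and 10 months), the growth factor by which endothelium recruits pericytes, and of pdgfbret/+ controls, which carry 1 mutant copy (4 arrays, aged 8, 8, 8 and 10 months); no brain region is named for either. In the second model, of mixed C57/SV129 background, mice without pdgfb (Tie2Cre, R26P+/0, pdgfb-/-) lived on 1 copy of a human PDGF-B transgene in the Rosa 26 locus that Cre, driven by the Tie2 promoter in endothelium, had switched on; their controls (R26P+/0, pdgfb+/+) carried the same transgene in its silent state. Both R26P groups were sampled in cerebrum and in cerebellum with 4 arrays each, and their ages are given as 2 months in one label field and as 1 year in another. Wild-type mice (C57/B6/J, Notch3+/+, aged 2 months) gave 3 arrays from each region. The mutants are called ret mutants and R26P mutants below. The labels call the arrays of a group biological replicates.

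Values are log2 signals in which a difference of 1 is a doubling, and each is a mean ± SD over arrays unless given for a single array. Signals of different probe sets are not comparable as levels, so each gene was set only against itself. Pdgfb itself read 4.73 to 8.01 in R26P mutants and 12.05 to 12.86 in their controls, with the highest mutant values on both arrays of mutant number 3. In ret mutants, which lose a motif and not the transcript, it read 11.71 to 12.51 and in ret controls 11.72 to 12.12. The pan-endothelial marker list was bright on all arrays, with mean signals between 12.66 and 13.64. Gh, a pituitary hormone, was above 8 on 9 arrays. In the models these were ret mutants 1, 2 and 4, cerebrum arrays 2 and 3 of R26P controls and of R26P mutants, and cerebellum array 3 of R26P mutants. The remaining one was wild-type cerebrum array 3. Gabra6, a gene of cerebellar granule neurons, read 2.93 to 3.85 on R26P mutant cerebellum arrays 1, 2 and 4 and 2.21 on array 3, beside 2.39 on mutant cerebrum array 3 and 2.16 on the other 3 mutant cerebrum arrays. Both arrays of mutant number 3 were near the lowest signal, and the one labelled cerebellum showed no cerebellar rise. The region labels of mutant number 3 are therefore doubtful, and the sign of its difference between regions is uncertain. Whether labels were exchanged or tissue was mixed was not tested. Xist, transcribed from the inactive X chromosome, went against the sex label on all 4 ret control arrays. It read 2.32 on ret control 4 and ret mutant 1, the mice of 10 months, and 12.21 to 12.92 on the other ret arrays. In both regions it was low, at 2.16 to 2.83, in R26P control number 1, R26P mutants number 2 and 3 and wild-type number 3. By Xist the sexes were thus not split equally between R26P mutants and controls.

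Notch receptors are membrane proteins that are cut when a Delta or Jagged ligand on a neighbouring cell binds them; the freed intracellular part joins the DNA-binding protein RBPJ in the nucleus and turns on repressors of the Hes and Hey families. In blood vessels Notch1 and Notch4 are the receptors of endothelium, Dll4 and Jag1 its main ligands, and Hey1 and Hey2 are linked to arterial identity. Notch3 is the receptor of the mural cells, pericytes and smooth muscle, that wrap the endothelium, and Heyl is its mural target. All these cells are in one fragment, so fewer cells of a type and less RNA per cell cannot be told apart in these data.

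The mural pair fell most, and the other members split. In ret mutants 6 of the 10 members changed, Dll4 upward and Notch1, Notch3, Dll1, Hey2 and Heyl downward (limma on all genes, Benjamini-Hochberg adjusted p under 0.05), where 16.6% of all genes tested did. Of all genes tested there, 8.00% rose and 8.63% fell. In R26P mutants 5 members changed in cerebrum, beside 18.7% of all genes (8.35% up and 10.3% down), and 4 in cerebellum, beside 15.6% (6.94% up and 8.70% down). Hey1 rose in both regions, and Notch3, Hey2 and Heyl fell in both, with Dll1 lower in cerebrum as well. The members called were also those whose mutant and control arrays did not overlap, as was the case for 23.5%, 25.9% and 22.8% of all genes in ret, R26P cerebrum and R26P cerebellum. The median change over the 10 members was −0.71 in ret mutants and, for the R26P model, −0.38 in cerebrum and −0.28 in cerebellum, beside 0.013, 0.0116 and 0.00108 over all genes tested. With the arrays of high Gh left out, ret mutant 3 alone remained beside the ret controls, so no calls are given for that model. In R26P cerebrum, where 2 arrays a group then remained, only Heyl was called, and in R26P cerebellum Notch3 and Hey1. The direction was the same for each member called with all arrays. Without R26P mutant number 3 alone, 4 members were called in R26P cerebrum. In R26P cerebellum its array was the only one of high Gh, so leaving it out was the same fit.

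**Figure D1:**
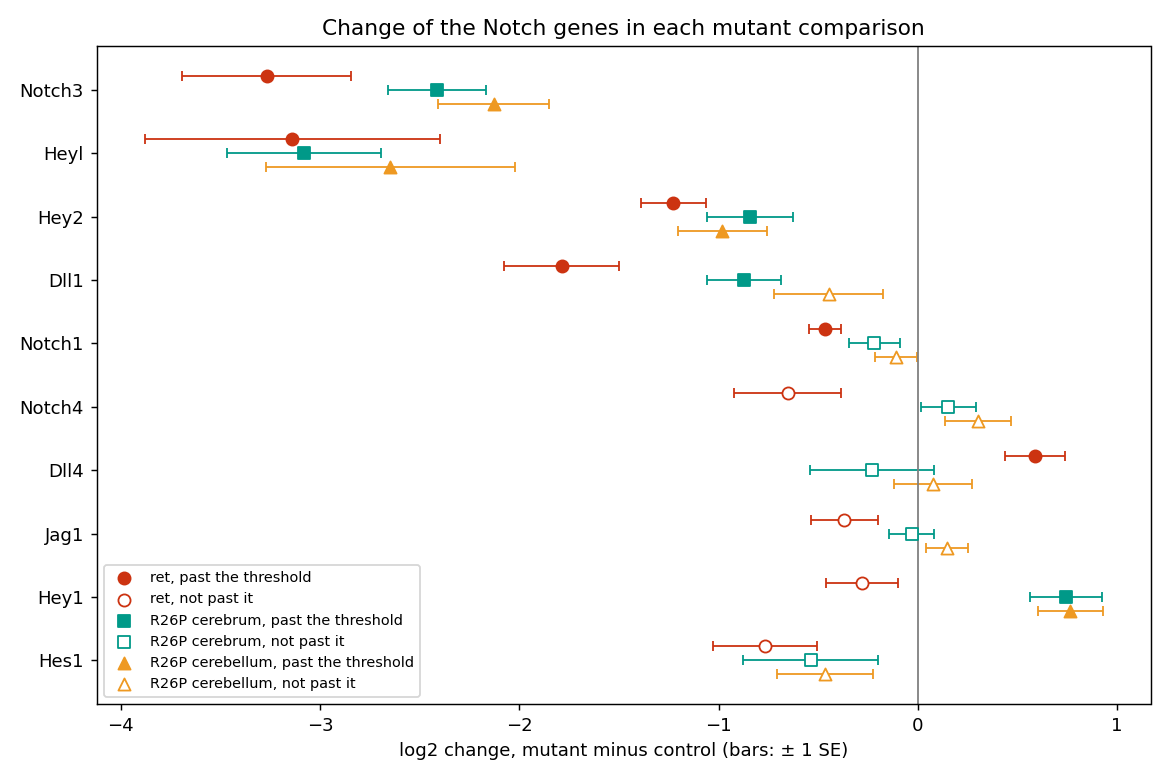
Log2 change of each of the 10 genes (x axis, mutant minus control) for the ret model and for both regions of the R26P model, with bars of 1 SE and filled symbols where the adjusted p was under 0.05. Notch3 and Heyl lie between −3.27 and −2.13 in all comparisons, and Hey1 is right of zero, with filled symbols, in both regions of the R26P model.

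Notch3, the mural receptor, was read mainly by probe set 1421965_s_at. Its start region, from 250 bases before to 3 bases from the transcription start on (RefSeq, GRCm38.p6, chr17:32166888-32167140, minus strand), is shown because it is the member with the firmest fall; it holds no RBPJ motif, spelled out with Hey2 below, so no letters are in capitals.
Notch3: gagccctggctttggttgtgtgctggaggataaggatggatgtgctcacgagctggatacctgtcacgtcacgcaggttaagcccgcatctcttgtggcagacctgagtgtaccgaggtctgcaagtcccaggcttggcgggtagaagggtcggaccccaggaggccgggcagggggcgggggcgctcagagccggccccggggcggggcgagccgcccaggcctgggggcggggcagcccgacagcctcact
Ret controls read 11.43, 12, 11.77 and 11.29 for Notch3 and ret mutants 8.52, 7.47, 7.91 and 9.52. Every mutant array was below every control array, and the mutants were spread more widely (SD 0.89 against 0.33). The change was −3.27 ± 0.42 (SE, n = 4 and 4), a 9.64-fold fall, with an adjusted p of 0.00263 in limma.

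In the R26P cerebrum the control arrays read 12.10, 12.23, 12.11 and 12.11 for Notch3 and the mutant arrays 10.15, 9.46, 10.20 and 9.09. The controls were nearly equal, and the gap to the highest mutant was wide. The fall was 5.32-fold (log2 change −2.41 ± 0.25, limma adjusted p = 0.000744). In cerebellum the controls read 12.77, 12.74, 12.70 and 13.05 and the mutants 11.28, 10.98, 10.59 and 9.89, again without overlap. That fall was 4.38-fold (−2.13 ± 0.28, limma adjusted p = 0.00256). The fainter Notch3 probe set changed by −2.41 in ret mutants and, for the R26P model, −2.32 in cerebrum and −2.74 in cerebellum, and passed the threshold each time (adjusted p = 0.0185, 0.00241 and 0.00277 over all probe sets tested). Among the groups of the models the order of Notch3 signals was R26P control cerebellum, R26P control cerebrum, ret control, R26P mutant cerebellum, R26P mutant cerebrum and ret mutant, and each of the first 3 lay clear of the next. The arrays of R26P mutant cerebellum overlapped those of R26P mutant cerebrum, which overlapped those of ret mutants.

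Heyl, the mural target, fell about as far with far more spread among mutants. Ret controls read 7.57, 7.75, 8.11 and 7.77 and ret mutants 4.68, 3.25, 3.73 and 6.98. Mutant 4 was near the controls and mutants 2 and 3 were below the filter level of 4, so that the change of −3.14 ± 0.74 (8.81-fold, limma adjusted p = 0.0266) carried the largest SE of any member. Without 1 array the adjusted p passed the threshold in only 1 of 8 fits and reached 0.0706; the direction held. Mutant 4 was also the highest ret mutant for Notch3, Hey2, Jag1 and Hey1.

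In R26P cerebrum Heyl read 9.05, 8.97, 8.94 and 9.03 in controls and 5.63, 6.18, 6.96 and 4.88 in mutants. The groups were far apart and the fall was 8.47-fold (−3.08 ± 0.39, limma adjusted p = 0.00173). The cerebellum controls read 9.61, 9.53, 9.39 and 9.45 and the mutants 7.02, 8.28, 7.19 and 4.90, a fall of 6.27-fold (−2.65 ± 0.62, limma adjusted p = 0.0279). Mutant 4 was lowest in both regions, for Notch3, Hey2 and Heyl alike. The cerebellum call for Heyl was lost on leaving out an array in 6 of 8 fits, with an adjusted p of up to 0.0722. The second Heyl probe set fell by 1.81, 2.29 and 2.41 on the log2 scale in ret, R26P cerebrum and R26P cerebellum (limma adjusted p = 0.0321, 0.000831 and 0.00287), and another lay at or near the lowest signal of the arrays in the models.

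The markers of mural cells fell with this pair. All 14 tested genes of the pericyte list, from which Notch3 and Heyl were left out, were lower in each mutant comparison. The median changes were −3.59, −3.45 and −3.45 in ret, R26P cerebrum and R26P cerebellum. The list was chosen with earlier results of these data known, so this count is a description only. The list's mean signal lay between 6.05 and 6.75 in ret mutants and between 9.13 and 9.55 in ret controls. In R26P mutants it lay between 6.25 and 8.12 over both regions and in R26P controls between 9.91 and 10.76. Of its 16 genes, 4 had mutant means below 4 and 2 had control means below 4. The smooth muscle list behaved less uniformly: of 13 genes, 2 were lower and 1 higher in ret mutants, 11 were lower in R26P cerebrum and 5 in R26P cerebellum. Its median changes were −1.37, −1.56 and −1.03 in the same order. Of 6 tested genes of the perivascular fibroblast list 2, 4 and 4 were lower in these comparisons, with medians of −0.64, −1.42 and −1.39. The part of these lists in the falls of Notch3 and Heyl was not tested.

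Set against the pericyte list on the same array, Notch3 changed by −0.23 ± 0.31 (SE) in ret mutants, with overlapping groups (exact two-sided permutation p = 0.514). In R26P mutants it was higher relative to the list, by 0.67 ± 0.15 in cerebrum and 0.82 ± 0.13 in cerebellum, without overlap between groups (exact permutation p = 0.0286, the smallest that 4 against 4 arrays allow). That p is 0.0515 after Benjamini-Hochberg adjustment over the 36 differences of this kind computed, so none of them passed. The sign depends on the reference: against the smooth muscle list Notch3 changed by −2.17, −1.0 and −1.24 in ret, R26P cerebrum and R26P cerebellum. Heyl changed by −0.10 ± 0.67, −0.00 ± 0.23 and 0.30 ± 0.49 relative to the pericyte list, with overlap in each comparison and signs that turned with the settings listed at the end.

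**Figure D2:**
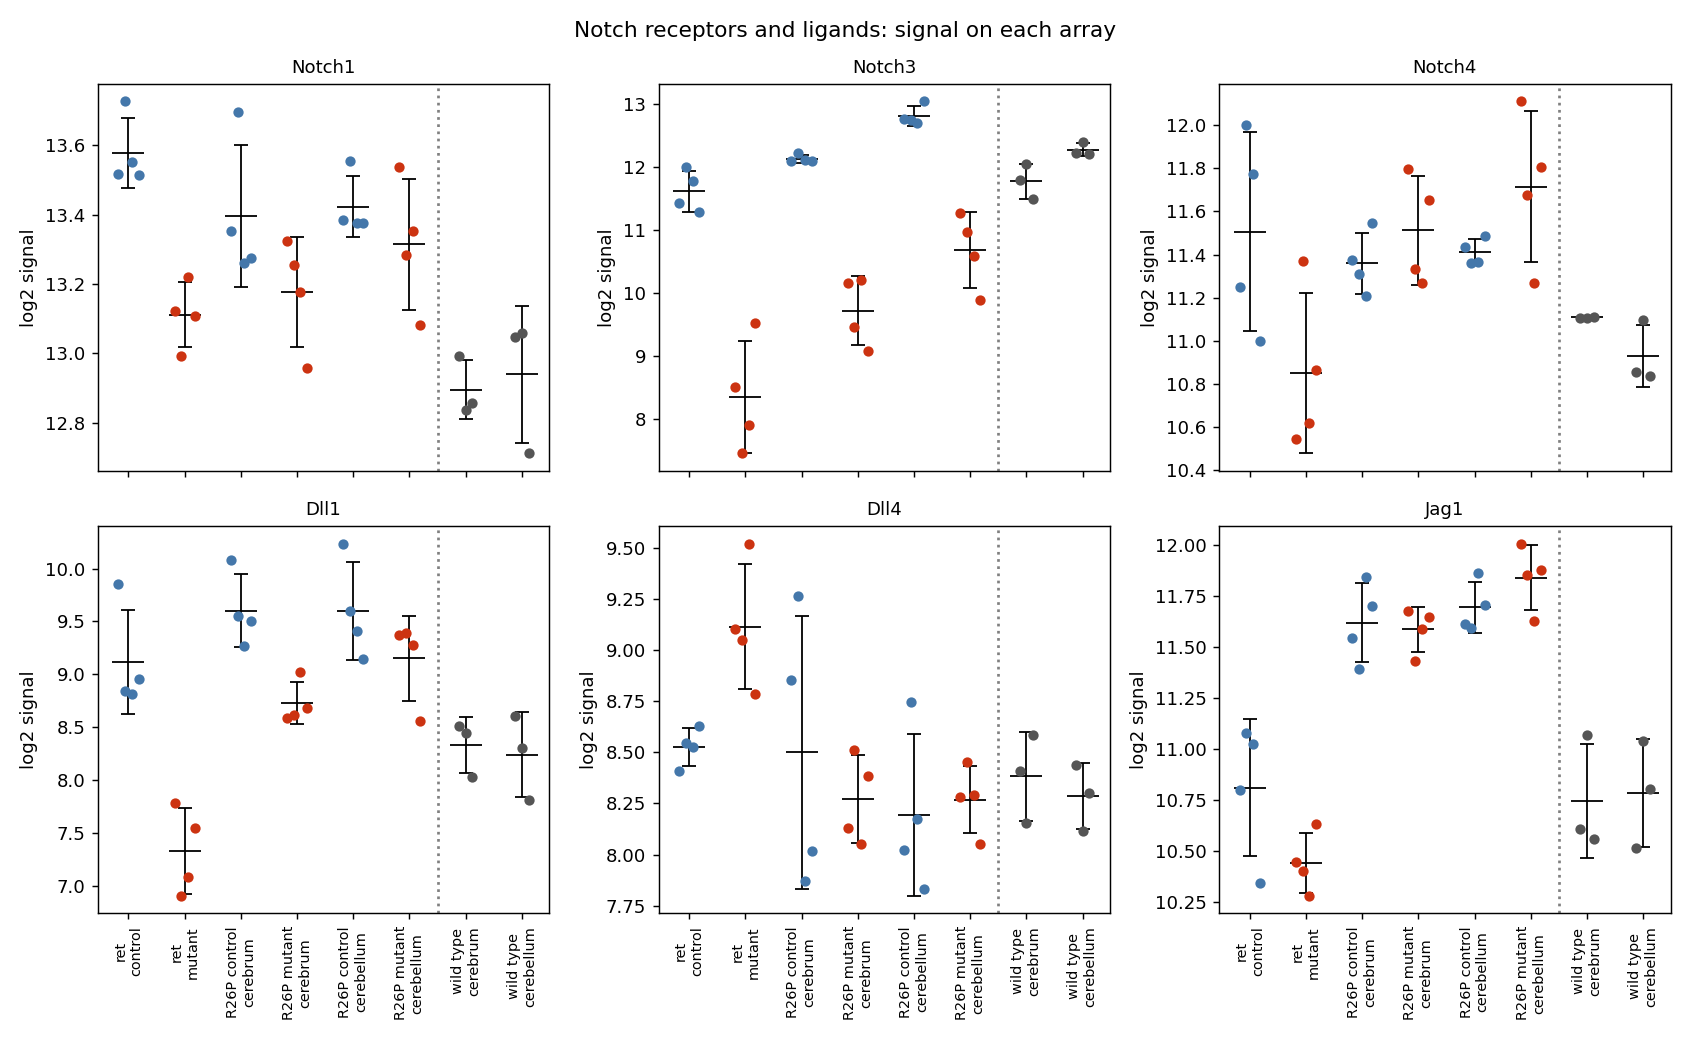
Log2 signal (y axes, each on its own scale) on every array for the receptors Notch1, Notch3 and Notch4 and the ligands Dll1, Dll4 and Jag1 in the 8 groups, with mean and SD; the dotted line parts the wild-type arrays, which were normalized separately. All mutant arrays lie below all their controls for Notch3, and ret mutants lie above ret controls for Dll4.

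Notch1, the main endothelial receptor, was slightly lower in ret mutants. The controls read 13.52, 13.73, 13.55 and 13.51 on probe set 1418634_at and the mutants 13.12, 12.99, 13.22 and 13.11. The groups did not overlap, but the distance was small: −0.47 ± 0.08, or 1.38-fold (limma adjusted p = 0.00751). The fainter Notch1 probe set changed by −0.66 and did not pass (adjusted p = 0.247). In R26P mutants the changes of −0.22 ± 0.13 in cerebrum and −0.11 ± 0.11 in cerebellum did not pass (limma adjusted p = 0.264 and 0.515). Their 95% intervals were −0.51 to 0.08 and −0.36 to 0.14. With Gh signal as a covariate the ret call was lost (limma adjusted p = 0.156). Leaving out the mutants of high Gh left mutant 3 alone, at a change of −0.36.

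Notch4, a receptor largely confined to endothelium, did not pass in any mutant comparison. Ret controls read 11.25, 12, 11.77 and 11.00 and ret mutants 10.55, 11.37, 10.62 and 10.87, with overlap (change −0.65 ± 0.27, limma adjusted p = 0.136); it passed when all groups of the models entered 1 fit (0.0287). In R26P mutants the changes were 0.15 and 0.30. Those of its probe sets that were not the brightest lay near the lowest signal and could not be tested.

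Among the ligands, Dll1 (probe set 1419204_at), a Delta ligand with a role in arterial endothelium, changed most. Ret controls read 9.85, 8.84, 8.82 and 8.95 and ret mutants 7.79, 6.91, 7.08 and 7.54. No mutant reached the lowest control, and control 1 stood above the other controls. The fall was 3.45-fold (−1.79 ± 0.29, limma adjusted p = 0.0062). Leaving out the mutants of high Gh left mutant 3 alone, at a change of −2.04. In R26P cerebrum the controls read 10.08, 9.55, 9.27 and 9.50 and the mutants 8.59, 8.62, 9.03 and 8.68, a fall of 1.83-fold (−0.87 ± 0.18, limma adjusted p = 0.0155) without overlap. In cerebellum, with controls at 10.24, 9.60, 9.41 and 9.15 and mutants at 9.37, 9.39, 9.27 and 8.56, the groups overlapped and the change of −0.45 ± 0.27 did not pass (limma adjusted p = 0.299). The difference between the 2 regions' changes, 0.42 ± 0.34, did not pass either (limma adjusted p = 1). With the replicate number as a block, though the numbers do not pair mutants with controls, the cerebrum call was lost (0.0664).

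Dll4, the ligand of arterial and sprouting endothelium, moved the other way. Ret controls read 8.41, 8.54, 8.53 and 8.63 and ret mutants 9.10, 9.05, 9.52 and 8.78. Every mutant was above every control, by 0.59 ± 0.15 or 1.5-fold (limma adjusted p = 0.0347), and the second Dll4 probe set rose by 1.08 (limma adjusted p = 0.0191). The call for the first probe set was lost in 6 of 8 fits without 1 array, with an adjusted p of up to 0.0895. In the R26P model cerebrum controls ranged from 7.87 to 9.26, wider than the mutants at 8.05 to 8.51, and the changes of −0.23 ± 0.31 and 0.08 ± 0.20 did not pass; both took the other sign when 1 control array was left out. The difference between the ret change and the R26P cerebrum change, 0.82 ± 0.36, did not pass (limma adjusted p = 0.208).

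Jag1, a ligand made by endothelium and smooth muscle, did not pass in any mutant comparison: the changes were −0.37 ± 0.17 in ret, −0.03 ± 0.11 in R26P cerebrum and 0.15 ± 0.10 in R26P cerebellum (limma adjusted p = 0.176, 0.863 and 0.366). Without ret control 4 the ret change was −0.53 and passed (0.0263). The 95% interval in R26P cerebrum ran from −0.30 to 0.23 for this brightest probe set. A fainter Jag1 probe set changed by −0.32 ± 0.20, −0.38 ± 0.22 and −0.02 ± 0.37 in the same order. It did not pass either (limma adjusted p = 0.333, 0.286 and 0.977). Another lay near its lowest signal on all 24 arrays of the models and could not be tested. On the brightest probe set the 16 R26P arrays, at 11.39 to 12.01, all lay above the 8 ret arrays, at 10.28 to 11.08. Model, strain, age and region cannot be told apart there.

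**Figure D3:**
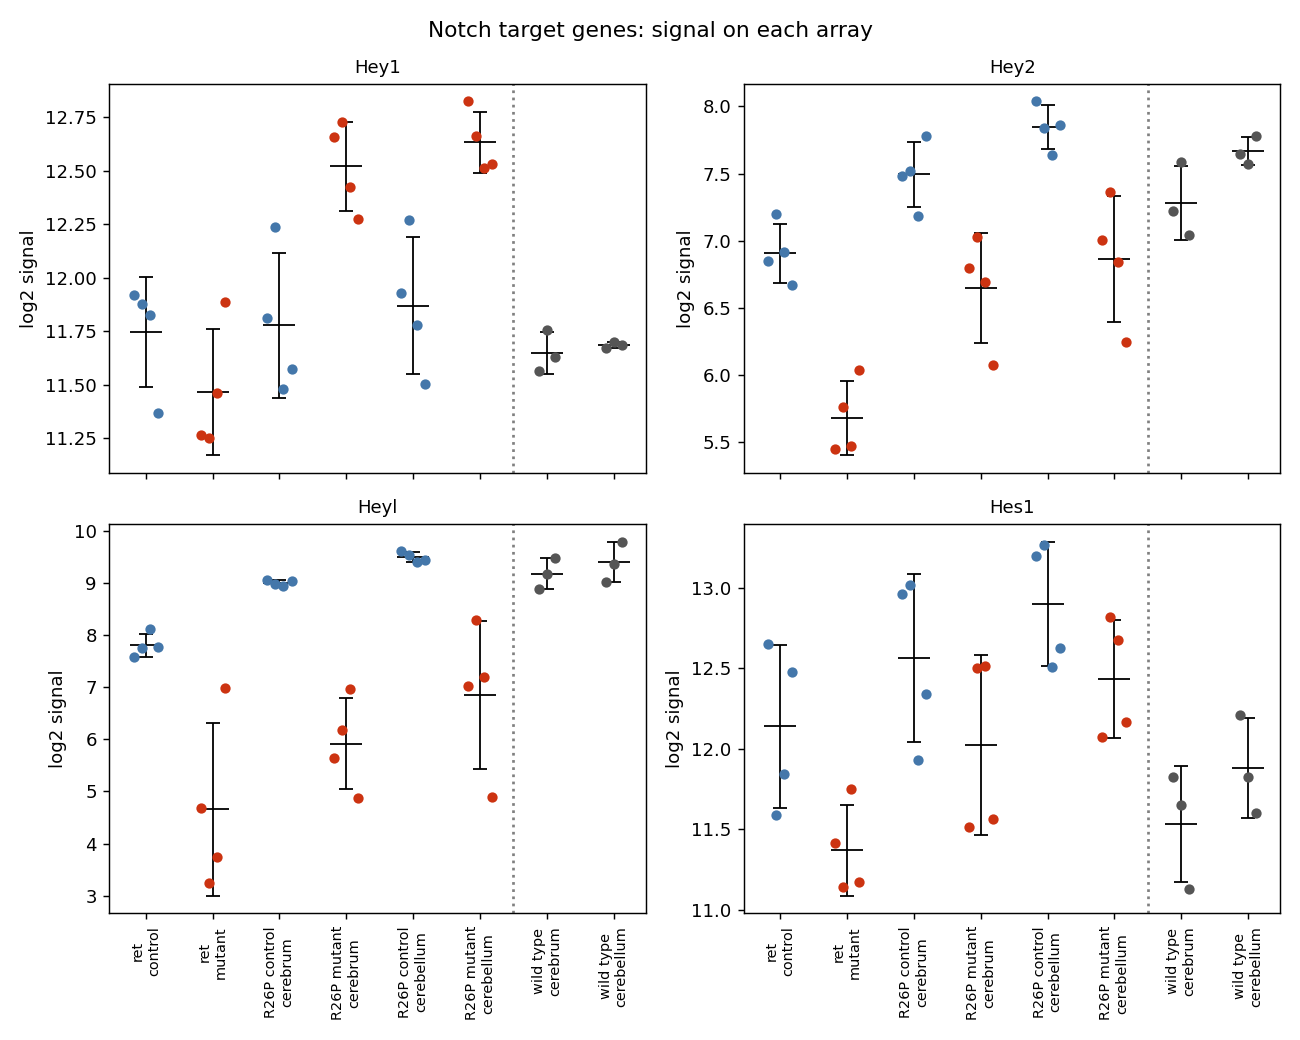
Log2 signal (y axes, each on its own scale) on every array for the targets Hey1, Hey2, Heyl and Hes1 in the 8 groups, with mean and SD; the dotted line parts the separately normalized wild-type arrays. Hey1 is above all controls in both R26P mutant groups, Hey2 and Heyl are below all their controls in every mutant group, and Hes1 overlaps in each comparison with control.

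Of the target genes, Hey1, a Hey repressor of endothelium, rose in the R26P model. In R26P cerebrum the controls read 11.81, 12.24, 11.48 and 11.58 on probe set 1415999_at and the mutants 12.66, 12.73, 12.42 and 12.28. The lowest mutant was just above the highest control. The rise was 1.67-fold (0.74 ± 0.18, limma adjusted p = 0.0274). In cerebellum the controls read 11.93, 12.27, 11.78 and 11.50 and the mutants 12.82, 12.66, 12.51 and 12.53, a rise of 1.70-fold (0.76 ± 0.16, limma adjusted p = 0.0195). The cerebrum call was lost in 5 of 8 fits without 1 array (adjusted p up to 0.0699) and the cerebellum call in 2 of 8, without mutant 1 or mutant 2 (up to 0.0512). The arterial endothelial list was also higher: its mean signal lay at 11.56 to 11.74 in mutant and 11.00 to 11.20 in control cerebrum, and at 11.65 to 11.84 in mutant and 10.82 to 11.14 in control cerebellum. Of its 10 tested genes 4 rose and 1 fell in cerebrum and 5 rose in cerebellum. In the ret model the list lay at 11.15 to 11.32 in mutants and 10.78 to 11.16 in controls. There 3 of its genes rose and 2 fell, while Hey1 did not rise. The part of these genes in the rise of Hey1 in the R26P model was not tested.

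In the ret model Hey1 read 11.92, 11.88, 11.83 and 11.37 in controls and 11.26, 11.25, 11.46 and 11.89 in mutants. Control 4 sat with the mutants and mutant 4 with the controls, and the change of −0.28 ± 0.18 did not pass (limma adjusted p = 0.322). The ret change minus the R26P cerebrum change was −1.02 ± 0.27, which just missed the threshold (limma adjusted p = 0.0507); 3.35% of all genes tested passed in that comparison and 0 of the 10 members, while 4 members, Notch4, Dll1, Dll4 and Hey1, had an unadjusted p under 0.05. The test passed for Hey1 under 5 other settings given at the end. The models also differ in strain, age and sampled region, and these cannot be told apart from the genotype.

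Hey2, another Hey repressor, made in arterial endothelium and in smooth muscle, was read by probe set 1418106_at. Its start region is printed because it is the 1 window among the members that holds the RBPJ motif GTGGGAA on either strand (RefSeq, GRCm38.p6, chr10:30842781-30843033, minus strand). Capitals mark the matches, at bases −207 to −201 on the opposite strand, where the motif reads TTCCCAC, and at −4 to 3 on the gene's own strand, counted from the transcription start with no base 0.
Hey2: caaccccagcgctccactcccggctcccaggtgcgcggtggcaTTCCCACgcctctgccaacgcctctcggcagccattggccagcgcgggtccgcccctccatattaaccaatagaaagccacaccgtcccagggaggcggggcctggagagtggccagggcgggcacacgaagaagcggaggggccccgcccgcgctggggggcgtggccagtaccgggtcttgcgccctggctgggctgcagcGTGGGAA
Of 32851 windows of 253 bases, 5.49% hold the motif and 0.167% hold it at least 2 times. The Hey2 window is 71.1% G and C, where the median of all windows is 52.2%. The table has windows for 7 of the 10 members, 8 in all since Dll1 has 2; Hey1, Heyl and Hes1 were not matched. The HES and HEY binding motif CACGTG, which reads the same on both strands, occurs in 6.13% of all windows and in none of these. A match is a description of letters, not of binding.

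Hey2 signals were 6.85, 7.20, 6.92 and 6.67 in ret controls and 5.45, 5.76, 5.47 and 6.04 in ret mutants. The groups were clearly apart, and the fall was 2.34-fold (−1.23 ± 0.16, limma adjusted p = 0.00299), a call that held without any 1 array. R26P cerebrum controls read 7.49, 7.52, 7.19 and 7.78 and mutants 6.80, 7.03, 6.70 and 6.07, a fall of 1.80-fold (−0.84 ± 0.22, limma adjusted p = 0.0319). In cerebellum 8.04, 7.84, 7.64 and 7.86 stood against 7.00, 7.37, 6.84 and 6.25, a fall of 1.97-fold (−0.98 ± 0.22, limma adjusted p = 0.0244). Neither region overlapped. Without 1 array the cerebrum call was lost in 5 of 8 fits (adjusted p up to 0.0769) and the cerebellum call in 4 of 8 (up to 0.0682).

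Hes1, a repressor that Notch and other signals induce in many cell types, did not pass in any mutant comparison. Ret controls read 12.65, 11.58, 11.84 and 12.48 and ret mutants 11.41, 11.14, 11.75 and 11.17. Mutant 3 lay above the lowest control, and the change of −0.77 ± 0.26 missed the threshold (limma adjusted p = 0.0855). In R26P mutants the changes were −0.54 ± 0.34 and −0.47 ± 0.24 (limma adjusted p = 0.3 and 0.225). The mean was lower in mutants in all comparisons, and the groups overlapped in each.

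The members outside the mural pair were also set against the pan-endothelial list on the same array. The list's own mean changed by 0.15, 0.26 and 0.40 in ret, R26P cerebrum and R26P cerebellum. Of its 18 tested genes 3 were higher and 2 lower in ret mutants, 7 higher and 1 lower in R26P cerebrum and 9 higher in R26P cerebellum. Relative to it Notch1 was lower in every comparison, by a change of −0.61 ± 0.12, −0.48 ± 0.11 and −0.51 ± 0.11, without overlap in any (exact permutation p = 0.0286 each, 0.0515 adjusted over 36). On single arrays the difference was 0.17, 0.41, 0.29 and −0.07 in ret controls and −0.46, −0.54, −0.42 and −0.24 in ret mutants. In R26P cerebrum it was 0.21, 0.45, 0.22 and 0.16 in controls and 0.04, −0.28, −0.26 and −0.37 in mutants. Such a ratio shows unequal change and not which of its sides moved. Notch1's own signal changed by −0.47, −0.22 and −0.11 in ret, R26P cerebrum and R26P cerebellum, and passed in ret alone. How many of all genes lack overlap relative to this list was not computed.

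Dll1 and Hey2 were lower relative to the endothelial list in all 3 comparisons, by −1.93, −1.13 and −0.85 for Dll1 and −1.37, −1.10 and −1.38 for Hey2, without overlap. Hey2, which within groups ran with the pericyte and smooth muscle lists (values below), was not set against either. Relative to the endothelial list Hes1 changed by −0.92, −0.80 and −0.87 and overlapped in R26P cerebrum alone. Dll4 was 0.44 ± 0.11 higher in ret mutants without overlap, and changed by −0.49 and −0.33 in R26P cerebrum and cerebellum with overlap (exact permutation p = 0.257 and 0.0857). Hey1 changed by 0.49 ± 0.16 and 0.36 ± 0.12 in R26P cerebrum and cerebellum (exact permutation p = 0.0571 and 0.0857) and by −0.43 ± 0.28 in ret mutants, with overlapping groups each time. Notch4 changed by −0.80, −0.11 and −0.10 and Jag1 by −0.52, −0.29 and −0.25 in ret, R26P cerebrum and R26P cerebellum, with overlap each time. The share of all genes without overlap on this measure was not computed. None of these differences passed after adjustment. Even the smallest p that 4 against 4 arrays allow, 0.0286, became 0.0515, so missing the threshold carries little information on any 1 member. The astrocyte list moved too, with 6, 8 and 7 of 9 tested genes lower in ret, R26P cerebrum and R26P cerebellum; its part in the members' changes was not tested.

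**Figure D4:**
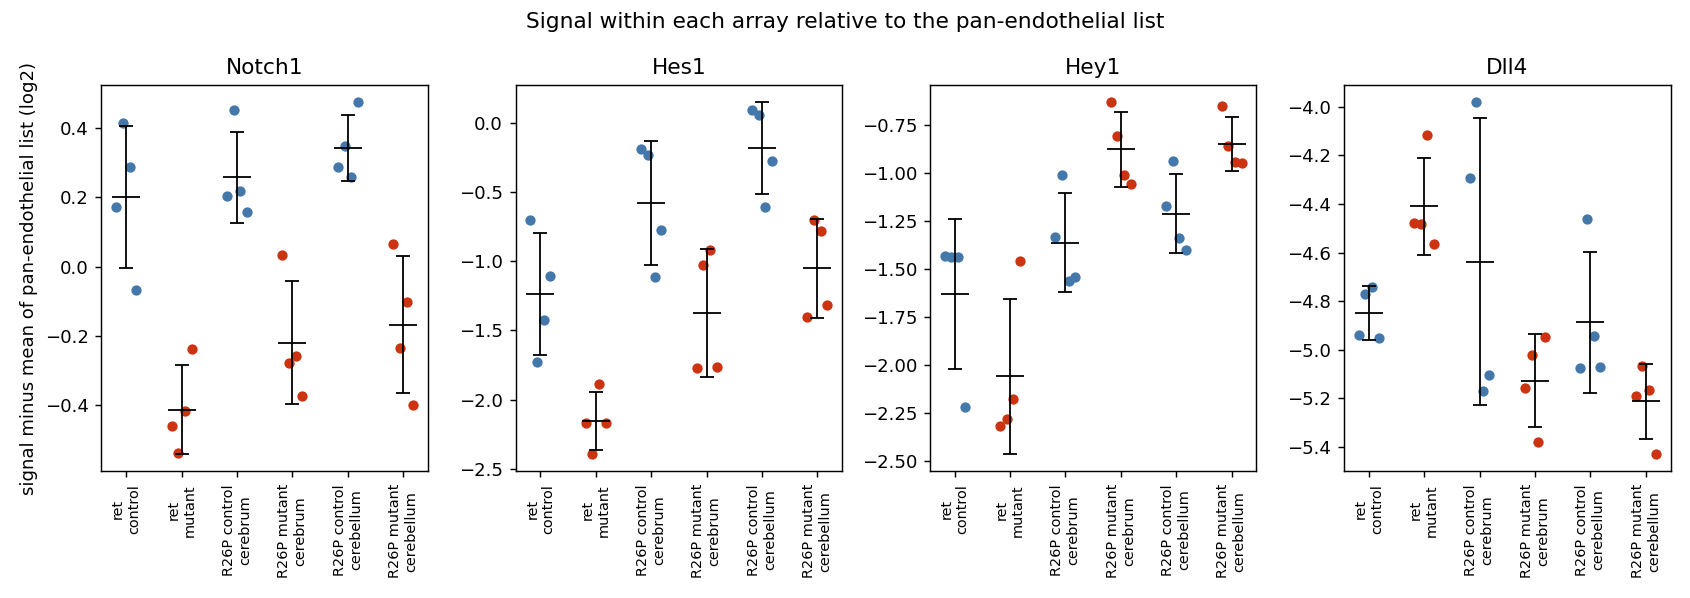
Signal of Notch1, Hes1, Hey1 and Dll4 minus the mean of the pan-endothelial list on the same array (y axes, log2, each on its own scale) in the 6 groups of the models, with mean and SD. For Notch1 every mutant array lies below every control array of its comparison; for Hes1 the R26P cerebrum groups overlap.

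Tests between regions treated the arrays as unpaired unless the replicate number is named as a block. The mural pair was higher in cerebellum. In R26P controls Notch3 was higher there by 0.68 ± 0.09 and Heyl by 0.50 ± 0.07 (limma adjusted p = 0.0172 and 0.0223); these 2 of 10 members passed, where 1.17% of all genes tested did, and neither overlapped between regions, as 8.12% of all genes did not. With the replicate number as a block the adjusted p was 0.0254 and 0.0229. Leaving out 1 array lost the Notch3 call in 4 of 8 fits and the Heyl call in 7 of 8, and without the cerebrum arrays of high Gh, 2 and 3, neither passed (0.132 and 0.206), at changes of 0.71 and 0.46.

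Wild-type cerebrum read 11.79, 12.05 and 11.49 for Notch3 and wild-type cerebellum 12.22, 12.40 and 12.21. Cerebrum array 3, the lowest, was also the wild-type array of high Gh (13.93). Without that array the difference was 0.36. The regions did not overlap, as in 21.7% of all genes, but the difference of 0.50 ± 0.15 did not pass (limma adjusted p = 0.19), nor did any other member, where 2.12% of all genes did; 2 members, Notch3 and Hey2, had an unadjusted p under 0.05. With 3 arrays a group the smallest exact permutation p is 0.1. Wild-type Heyl read 8.88, 9.17 and 9.48 in cerebrum and 9.02, 9.37 and 9.79 in cerebellum, overlapping as groups. Taken by replicate number, each of the 3 wild-type pairs was higher in cerebellum for Notch3 (by 0.35 to 0.72), Heyl (0.15 to 0.31) and Hes1 (0.18 to 0.47). The SD of these pair differences was 0.19 for Notch3, 0.082 for Heyl and 0.15 for Hes1. Notch4 was the other member without overlap, at 11.11 on each wild-type cerebrum array and at 10.86, 11.10 and 10.84 in cerebellum (−0.18 ± 0.08, limma adjusted p = 0.375).

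In R26P mutants, leaving aside pair 3 with its doubtful region labels, Notch3 was higher in cerebellum in the other 3 pairs, by 0.81 to 1.52, and Heyl by 0.02 to 2.10; with all pairs neither passed (limma adjusted p = 0.8 and 1); in this comparison 0 of 11243 genes passed in limma, 2.77% did not overlap, and 2 members, Notch3 and Jag1, had an unadjusted p under 0.05. As labelled, pair 3 gave 0.39 for Notch3, 0.24 for Heyl and 0.16 for Hes1, signs that would turn if its regions were exchanged. In the other pairs of the 3 genotypes Hes1 was higher in cerebellum each time, and Hey2 in all but wild-type pair 2. The pericyte list was higher in cerebellum for 8 of 14 genes in R26P controls, 5 of 14 in wild type and 0 of 14 in R26P mutants, where its median difference was 0.81. The difference of the R26P effect between regions passed for no member (0 of 10 in limma, 0 with an unadjusted p under 0.05). Of all genes tested 0.116% passed. The intervals were as wide as −0.55 to 1.11 for Notch3 and −1.22 to 2.09 for Heyl. That fit did not pair the arrays by replicate number.

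**Figure D5:**
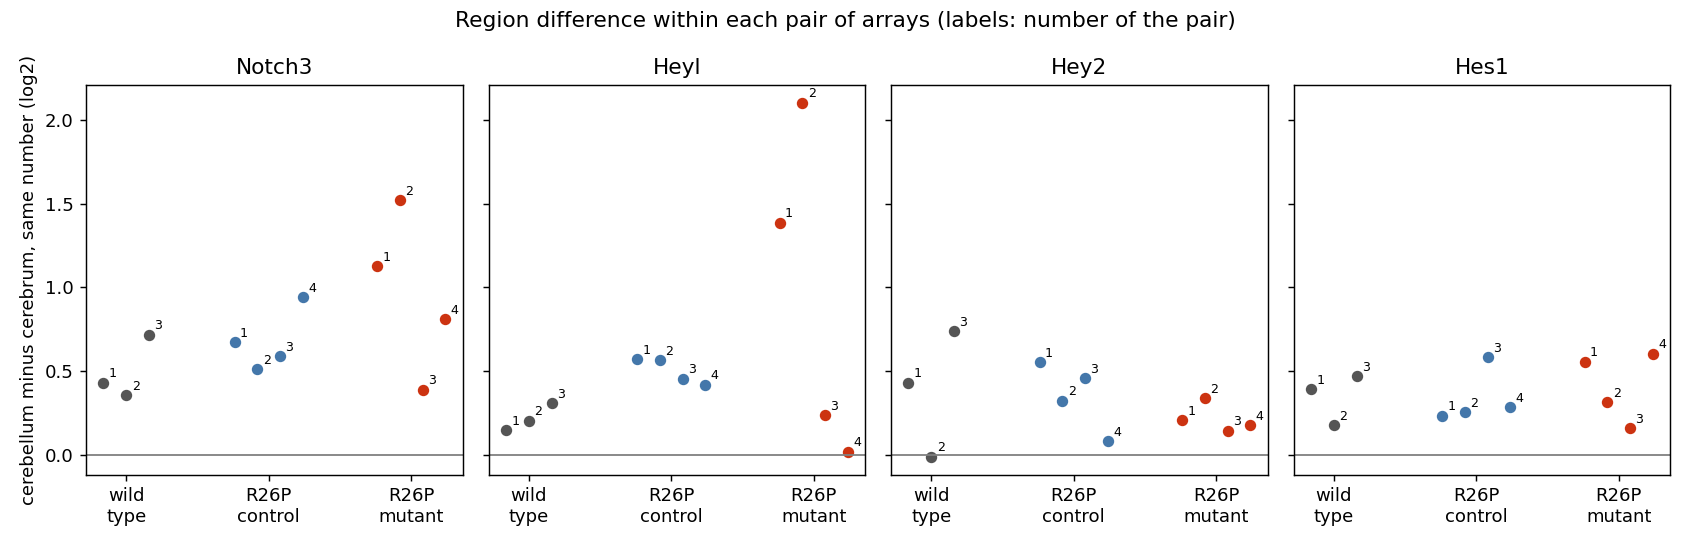
Cerebellum minus cerebrum (y axis, log2) within each pair of arrays of the same replicate number for Notch3, Heyl, Hey2 and Hes1 in the 3 genotypes sampled by region; the numbers beside the points name the pair. As labelled, all points lie above zero for Notch3, Heyl and Hes1, R26P mutant pair 3 with its doubtful region labels included, and for Hey2 wild-type pair 2 lies at −0.01.

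The rest of the pathway was described from a list of 49 other genes, of which 45 are on the array and 39 were tested. In ret mutants 1 was higher and 3 were lower, with a median change of −0.01. In R26P cerebrum 4 were higher and 4 lower (median 0.04), and in R26P cerebellum 6 were higher and 2 lower (median 0.06). Of all genes tested 16.6%, 18.7% and 15.6% passed in these comparisons.

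In the R26P model Spen, a corepressor that binds RBPJ, was higher by 1.02 ± 0.14 in cerebrum and 1.47 ± 0.21 in cerebellum (limma adjusted p = 0.00255 and 0.00333). Psen2, a catalytic subunit of the protease that cuts Notch, was higher by 0.66 and 0.68. Dtx4, a Deltex ubiquitin ligase, was lower by a change of −1.76 ± 0.28 and −1.65 ± 0.20 (limma adjusted p = 0.00533 and 0.00211) in the same order. Kat2b, an acetyltransferase, changed by −0.44 in cerebrum. Hes6 was 0.61 higher in cerebrum. In cerebellum Mfng, a Fringe enzyme that adds sugar to Notch, was higher by 0.85 ± 0.08 (limma adjusted p = 0.000541), the Fringe Lfng by 0.76 ± 0.21 at means of 4.50 and 3.74, and Efnb2, an arterial ephrin ligand, by 0.72.

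In ret mutants the ligand Jag2 changed by −0.81 ± 0.21 (limma adjusted p = 0.0379), the Fringe Lfng by −0.74 ± 0.14 (0.0127), the Deltex gene Dtx2 by −0.47 ± 0.08 (0.00906) and Hes6 by 0.53 ± 0.12 (0.023). The signal of Lfng was low, with means of 4.14 in mutants and 4.89 in controls. The ret change minus the R26P cerebrum change passed for 4 of the 39, beside 3.35% of all genes tested: Dtx4 (1.89 ± 0.47), Lfng (−1.27 ± 0.23), Dtx2 (−0.60 ± 0.15) and Rfng (−0.55 ± 0.14), with limma adjusted p of 0.0442, 0.013, 0.0438 and 0.0443. Between wild-type regions 1 of the 39 passed, beside 2.12% of all genes tested, the ligand-like Dlk1, which was 2.84 ± 0.46 higher in cerebellum (limma adjusted p = 0.046).

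The genes whose signals ran most like each member's were found over the 24 arrays of the models after the group means had been removed, as a description, since arrays of the same number pair across regions and all arrays of a group share its tissue makeup. For Notch3 they were Cspg4, the pericyte proteoglycan NG2 (Pearson r = 0.944), Samd4 (0.918), Zic1 (0.914), Gucy1a1 (0.913) and Aoc3 (0.913). For Heyl they were Slc19a1 (0.942), S1pr3 (0.934), Cald1 (0.907), Ddit4l (0.904) and Prrx1 (0.901). The nearest genes of the other members were less close, led by Tirap for Notch1 (0.9), Zbtb16 for Notch4 (0.883), Gstt3 for Hes1 (0.855), Zfand2a for Hey1 (0.852), Myo1c for Jag1 (0.849), Wdr37 for Dll4 (0.846), Mtcl1 for Hey2 (0.837) and Fam220a for Dll1 (0.768).

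Measured the same way against the mean of the pericyte list, the members fell in the order Heyl (0.851), Notch3 (0.83), Hey2 (0.792), Notch1 (0.569), Hey1 (0.479), Dll1 (0.32), Hes1 (0.224), Jag1 (0.164), Dll4 (0.0445) and Notch4 (0.0261). For Hey2 the value against the arterial endothelial list was −0.0258 and for Hey1 0.0467, within groups. Hey2 lay at −0.0841 against the pan-endothelial list. Against the smooth muscle list the values were 0.83 for Heyl, 0.788 for Notch3, 0.715 for Hey2 and 0.4 for Dll1. The other members lay at 0.34 or lower there.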

How the data were processed

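The deposited values are log2 signals that the authors made with GCRMA 2.6.0 under R 2.4.1, per the submitters' processing notes; GCRMA corrects background by probe sequence, normalizes by quantiles and gives 1 log2 signal per probe set. Genome build and annotation are not given in the sources used here. The smallest value is 2.16 on the 24 arrays of the models (35.8% to 37.0% of each array) and 2.17 on the 6 wild-type arrays, so these were normalized apart and wild type was compared only with itself. The platform annotation names 1 gene for 34958 of 45101 probe sets, several for 932 and none for 9211. Each gene stands for its brightest probe set, kept above 4 on at least 3 arrays.

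Tests used limma 3.58.1 in R 4.3.3 (lmFit, eBayes, two-sided) on the arrays of the compared groups, with Benjamini-Hochberg adjustment over 11243 genes and a threshold of 0.05. Differences from marker lists used exact permutation tests. The procedure was tested on simulated data. The number of arrays limits precision. The members and lists were chosen with earlier results of these data known. Text names the members, up to 6 called genes of the wider pathway per comparison and the 5 most similar genes per member. Replicate numbers paired the regions: deviations from group means correlated at 0.344 to 0.84 between same-numbered arrays, each best with its own; those of controls and mutants did not pair. Alternatives were other filters, probe set rules, scalings, fits, covariates and left-out arrays.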

Additional observations from a re-analysis of the deposited data

Results flagged for a closer look

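In 5 of 60 sets of 4 arrays, 1 array stood far from the others of its group; chance alone gives about 1 in 20. Notch1 in R26P control cerebellum was 13.56 on array 2 and 13.38 on the others, and Notch3 in R26P control cerebrum was 12.23 on array 2 and 12.10 to 12.11 on the others, gaps that are small beside the changes in mutants for Notch3. Dll1 was 9.85 on ret control 1 against 8.82 to 8.95, and 8.56 on R26P mutant cerebellum 4 against 9.27 to 9.39. Hey1 was 11.37 on ret control 4 against 11.83 to 11.92, on the side of the ret mutants.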

How the results depend on the processing

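Every member called in a mutant comparison kept its direction under all settings run. Notch3 kept its call in all 3 mutant comparisons on leaving out any 1 array, but not in R26P cerebrum without the arrays of high Gh, a setting chosen after seeing the data, which left 2 arrays a group (adjusted p = 0.101). In ret mutants that setting left mutant 3 alone, which was assumed to vary like the controls. The number of members called in ret mutants was 4 to 6 without 1 array and 3 with the replicate block, which lost Notch1, Dll4 and Heyl (0.0609, 0.0921 and 0.0649). In R26P cerebrum it was 3 to 5 without 1 array, 3 with no filter on low signal, 3 with the replicate block, which lost Dll1 and Hey2, and 1 without the arrays of high Gh. In R26P cerebellum it was 2 to 4 without 1 array, 1 with no filter and 2 with Gh signal as a covariate. Without mutant 3, the only array of high Gh there, it was 2. In R26P control regions it was 0 to 2 without 1 array, and 0 with probe sets of a gene averaged, with all groups in 1 fit, with the Gh covariate and without the arrays of high Gh; the replicate block changed no call in any region comparison. For the ret change against the R26P change it was 0 to 1 without 1 array, and 1, Hey1, with genes of mean signal above 6, with an intensity trend and robust prior, after renewed quantile normalization, after centring on the median and with all groups in 1 fit. Other comparisons gave 0 members throughout.

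Relative to the pericyte list, Notch3 in ret mutants lay at −0.46 to −0.01 without 1 array, 0.14 with the mean of its probe sets, 0.78 with the list's median and −2.17 against smooth muscle. In R26P cerebrum it lay at 0.57 to 0.80, and −1.0 against smooth muscle; in cerebellum at 0.72 to 0.90, 0.60 with the probe set mean (exact permutation p = 0.0571) and −1.24 against smooth muscle. Heyl in ret mutants lay at −0.71 to 0.30, with 1.33 by probe set mean and 0.91 by list median. In R26P cerebrum it lay at −0.19 to 0.13, with 1.29 by probe set mean, 0.0509 after renewed quantile normalization, 0.83 by list median and −1.67 against smooth muscle. In cerebellum it lay at −0.04 to 0.73, with 1.35 by probe set mean and −1.76 against smooth muscle. The cause of these turns was not tested.

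Changes that turned sign were all uncalled. For Jag1 in R26P cerebrum the values were 0.0125 after centring, 0.0428 without the arrays of high Gh and −0.11 to 0.0424 without 1 array. For Dll4 they were −0.44 to 0.0236 in cerebrum and −0.0451 to 0.26 in cerebellum without 1 array. The difference of R26P effects between regions was −0.0666 for Notch3 by probe set mean and −0.0435 to 1.08 for Heyl without 1 array. The ret change minus the R26P change was, for Heyl, 0.14 by probe set mean, 0.0393 with Xist as a covariate and −0.83 to 0.42 without 1 array, and for Hes1 0.73 without the arrays of high Gh. Signals near the arrays' lowest value carry little information on size.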
